A study of Homo sapiens with 8 samples.

Results

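The 10 genes described here, MDM2, GADD45A, BBC3, FAS, BAX, TP53I3, TP53INP1, PHLDA3, ZMAT3 and RRM2B, are known transcriptional targets of the tumour suppressor p53, taken by name and leaving aside CDKN1A (p21). They are 10 of 13703 genes listed in either of 2 expression tables. Polyadenylated RNA was sequenced from the human osteosarcoma cell lines 143B and HOS, and 143B is a transformed derivative of HOS. Each line was profiled as control cells (NC) and as cells labelled sgNAT10, which carry a guide RNA against NAT10, and the submitters describe these as knockout cells. There were 4 groups of 2 libraries, and the labels give no drug or time course. No guide sequence, Cas9 source or clone is named in them, nor is it stated that replicate libraries came from different cultures. P-values therefore measure only the spread between these libraries, which may be technical.

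p53 is a transcription factor that is stabilised after DNA damage and other stress, and it binds a pair of short half-sites near or within its target genes. Its targets fall into several arms: MDM2 returns to p53 and marks it for degradation, GADD45A and RRM2B serve growth arrest and DNA repair, and BBC3, BAX and FAS serve cell death. NAT10 is an enzyme that acetylates cytidine in RNA, and it has been reported to act on p53 and MDM2 proteins as well.

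Sequences that resemble the p53 consensus are shown for 2 members, since p53 targets are defined by that factor. RefSeq promoter windows (GRCh38.p14, 250 bases before to 50 after an annotated start) were searched for a pair of adjoining p53 half-sites of 10 bases each, with no spacer and at most 2 mismatches to the p53 consensus over 20 bases. The consensus is its own reverse complement, so a single pass covers both strands. Windows were matched for BAX, BBC3, FAS, MDM2, TP53I3 and ZMAT3. GADD45A and PHLDA3 had no window, and windows of RRM2B and TP53INP1 were not examined. Of all 35116 windows, 228 (0.649%) held such a pair. This is a share of windows and not of genes: the 6 members had 12 windows, 4 of MDM2 and 3 of FAS. A pair was found in FAS and MDM2, with 2 mismatches in each. The MDM2 pair is the same site in overlapping windows. The pairs read as follows, 5′ to 3′ on the plus strand.
FAS: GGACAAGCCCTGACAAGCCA
MDM2: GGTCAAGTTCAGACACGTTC
The FAS pair lies at chr10:88991309-88991328, inside annotated exons of both FAS and the oppositely oriented smooth muscle actin gene ACTA2. The MDM2 pair lies at chr12:68808923-68808942 in an intron of MDM2, 75 to 94 bases upstream of an internal start. The MDM2 window, chr12:68808767-68809066 on the plus strand, is given in full with the pair in capitals.
MDM2 window: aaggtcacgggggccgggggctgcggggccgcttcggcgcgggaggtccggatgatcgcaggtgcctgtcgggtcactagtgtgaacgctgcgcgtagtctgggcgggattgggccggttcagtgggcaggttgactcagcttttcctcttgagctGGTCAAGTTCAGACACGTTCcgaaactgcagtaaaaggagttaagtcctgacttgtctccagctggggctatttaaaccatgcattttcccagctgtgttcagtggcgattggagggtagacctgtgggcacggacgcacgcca
A match to these letters is a description and shows no binding. The tables hold no binding data, and a link between these pairs and the changes below was not tested.

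Levels are FPKM, fragment counts scaled by transcript length and library total, so they can be compared between genes. Every gene in a table exceeded 0.5 FPKM in at least 2 of its libraries, and read depth is unknown. Changes are differences of log2(FPKM + 1), sgNAT10 minus NC, which understate the change of low genes, and a change was called at a Benjamini-Hochberg adjusted p under 0.05 from limma over all genes tested. For a single gene the smallest p that an exact permutation test allows here is 0.33. NAT10 was at 16.06 and 19.95 FPKM in 143B NC against 9.05 and 7.19 FPKM in 143B sgNAT10. The HOS values were 14.9 and 16.2 FPKM for NC against 21.1 and 19.1 FPKM for sgNAT10, so the RNA of the targeted gene was not called lower in HOS, and every HOS direction below is between the libraries as labelled. The log2 change of NAT10 was -1.06 in 143B (adjusted p = 0.026) and 0.35 in HOS (adjusted p = 0.0054). The HOS rise was not called under median-ratio scaling (0.14, adjusted p = 0.26), with a shared spread (adjusted p = 0.23) or without sgNAT10 replicate 1 (0.18), and length and GC correction turned it to -0.047. The 143B fall was not called under median-ratio scaling (adjusted p = 0.060) or when NC replicate 2 (0.064), sgNAT10 replicate 1 (0.11) or sgNAT10 replicate 2 (0.22) was left out. The median change over all genes tested was -0.25 in 143B and 0.19 in HOS. Median-ratio scaling moved these medians to -0.017 and -0.0079, so a change smaller than that shift depends on the scaling. Of 10 osteoblast and mesenchymal markers, 6 were listed in 143B and 7 in HOS. SP7, BGLAP and IBSP were listed in neither. The listed markers of this kind summed to 1395 to 1821 FPKM in 143B NC, 502 to 793 in 143B sgNAT10, 1385 to 1578 in HOS NC and 1736 to 1798 in HOS sgNAT10. Of 6 blood markers CD14 and LYZ were listed in both lines, summing to 2.75 FPKM in each 143B NC library, 6.89 to 7.41 in 143B sgNAT10 and 2.28 to 3.2 in HOS. Of 6 epithelial markers 2 were listed in 143B (2.41 to 3.56 FPKM summed) and 3 in HOS (16.8 to 22.5), and of 6 endothelial and neural markers 0 and 2 (at most 2.02). The part of these shifts in the results below was not tested, and in bulk RNA fewer cells of a type and less RNA per cell cannot be told apart.

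The members did not all move one way: GADD45A and BBC3 fell in 143B and rose in HOS, while ZMAT3 rose in both lines. Some of these calls depended on the scaling. Under median-ratio scaling the BBC3 rise in HOS (0.15, adjusted p = 0.27) and the GADD45A fall in 143B (-0.64, adjusted p = 0.17) were not called. Nor was the ZMAT3 rise in HOS (0.25, adjusted p = 0.062). In 143B, 7 of the 10 genes had enough signal to be tested. ZMAT3 rose, GADD45A and BBC3 fell, and 4 were not called. The background was high: 38.3% of the 11419 genes tested in 143B were called, 12.9% higher and 25.4% lower (2361 higher and 2541 lower genes under median-ratio scaling, against 1473 and 2897). In HOS all 10 were tested, of which 6 rose, FAS fell and 3 were not called, against 68.5% of 11957 genes called (45.5% higher and 23.0% lower; 3762 and 4038 genes under median-ratio scaling, against 5444 and 2751). Without overlap between groups, 6 members were higher in both sgNAT10 libraries of HOS and 1 lower, beside 53.4% and 28.5% of all genes listed. The members' median change was 0.13 in 143B, over those tested, and 0.36 in HOS. Shares of this size are near the background, so the counts alone set the members apart from other genes in neither line. Without sgNAT10 replicate 1 the number of members called in 143B was 1, and without sgNAT10 replicate 2 it was 0. In HOS it was 4 under median-ratio scaling and 2 of 7 with a spread shared by both lines.

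**Figure D1:**
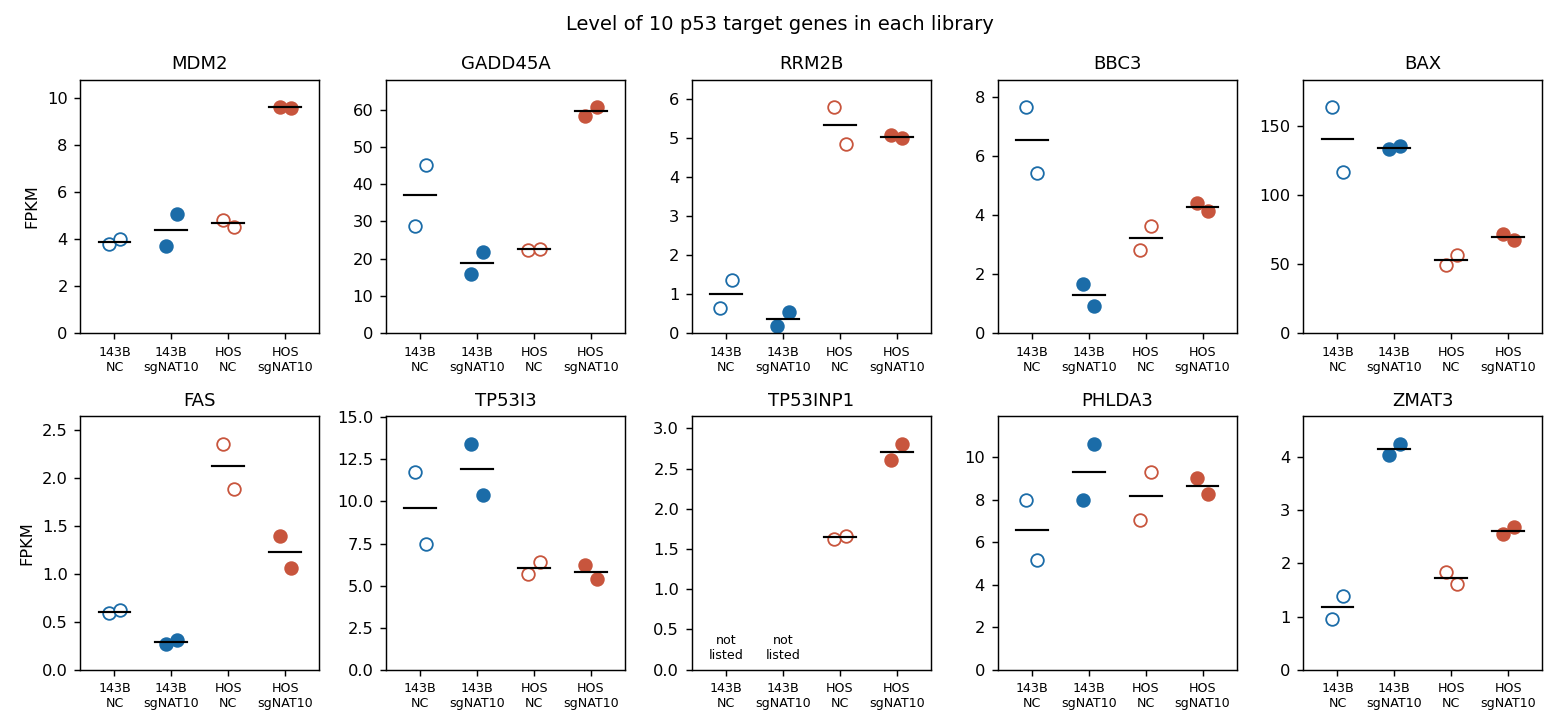
FPKM (vertical axis, linear from 0) of each of the 10 genes in every library, with NC libraries as open points, sgNAT10 libraries as filled points and the group mean as a bar (n = 2 per group). GADD45A and BBC3 were lower under sgNAT10 in 143B and higher in HOS, while ZMAT3 was higher under sgNAT10 in both lines.

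MDM2, the ubiquitin ligase that limits p53, lies on chromosome 12 from 68808176 to 68850686 (plus strand, GRCh38). It stood at 4.83 and 4.52 FPKM in HOS NC and at 9.64 and 9.6 FPKM in HOS sgNAT10. The groups did not overlap, and the level under sgNAT10 was 2.06 times that of NC (log2 change 0.90, SE 0.11, adjusted p = 1.9e-06). This call held under each of 16 alternatives, with log2 changes from 0.60 to 1.09. The NC libraries of 143B had 3.79 and 4.01 FPKM, those of sgNAT10 3.69 and 5.09 FPKM. Those groups overlapped, and the log2 change was 0.13 with a 95% interval from -0.64 to 0.89 (adjusted p = 0.80). The interval does not exclude a change near that of HOS. A fit of both lines tested the difference directly and gave -0.78 for 143B minus HOS (SE 0.28, adjusted p = 0.045). Every fitted difference between lines takes a spread shared by both, though the SE of MDM2 was 0.34 in 143B and 0.11 in HOS. The call of a difference for MDM2 rested on little. It was lost without 143B sgNAT10 replicate 1 (adjusted p = 0.13), without HOS NC replicate 1 (0.12) or 2 (0.15), without HOS sgNAT10 replicate 1 (0.15) or 2 (0.15), with a pseudocount of 0.1 (0.064) and under median-ratio scaling (0.25). Ordered by mean, HOS sgNAT10 stood highest, and the other groups, HOS NC, 143B sgNAT10 and 143B NC, overlapped with their neighbours. MDM2 shares 133 exonic bases with CPM on the opposite strand, and CPM stayed at or below 1.94 FPKM in every library. In 143B CPM was at 0.37 and 0.43 FPKM in NC and at 1.94 and 1.65 FPKM in sgNAT10. The part of CPM in the MDM2 value was not tested. No source states whether the libraries were stranded.

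GADD45A, which binds cell cycle and repair proteins after DNA damage, changed in opposite directions in the 2 lines. Its position is chromosome 1, 67685061 to 67688338 (plus strand). For HOS, NC gave 22.4 and 22.7 FPKM and sgNAT10 58.5 and 60.8 FPKM, a level 2.64 times as high (log2 change 1.36, SE 0.09, adjusted p = 6.4e-09). 143B values were 28.7 and 45.2 FPKM for NC and 15.97 and 21.8 FPKM for sgNAT10, which is a change of -0.91 on the log2 scale (SE 0.31, adjusted p = 0.047). Neither pair of groups overlapped. The difference, 143B minus HOS, was -2.28 (SE 0.34, adjusted p = 0.00078) and was called under each of 19 alternatives. The fall in 143B alone was close to the threshold. Leaving out NC replicate 2 ended the call (adjusted p = 0.19), as did leaving out sgNAT10 replicate 1 (0.27) or 2 (0.052) and median-ratio scaling (0.17). A pseudocount of 5 (0.054) and no intensity trend (0.061) ended it too.

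The paralogs of GADD45A moved the same way in HOS. GADD45B rose from 34.7 and 38.3 to 96.7 and 97.0 FPKM (log2 change 1.39, adjusted p = 4.7e-09). GADD45G went from 0.57 and 0.43 to 4.3 and 5.26 FPKM (log2 change 1.94). It passed the filter in HOS only through its sgNAT10 libraries, so no p-value is given for it. In 143B GADD45B stood at 40.7 and 45.5 FPKM in NC and at 27.9 and 32.01 FPKM in sgNAT10, which was not called (log2 change -0.51, adjusted p = 0.14). It was called lower when rescaled to a common sum (-0.84, adjusted p = 0.031), with a shared spread (0.031) or with the replicate block (0.0083). GADD45G stayed below 1 FPKM in all 143B libraries and was not tested there.

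RRM2B, the p53-inducible small subunit of ribonucleotide reductase, supplies deoxynucleotides for repair and for mitochondrial DNA. The gene spans 102204502 to 102239118 on chromosome 8 (minus strand). HOS NC libraries had 5.8 and 4.86 FPKM and HOS sgNAT10 libraries 5.08 and 5 FPKM. These overlapped, and the log2 change was -0.064 with a 95% interval from -0.30 to 0.18 (adjusted p = 0.63). In 143B the gene stood at 0.63 and 1.36 FPKM in NC and at 0.19 and 0.55 FPKM in sgNAT10, too low to pass the filter. The sgNAT10 libraries were both below the NC libraries there, as in 42.0% of all genes listed for 143B. In FPKM every 143B library was below every HOS library for RRM2B. The other subunits of ribonucleotide reductase went apart in HOS: RRM2 rose from 25.8 and 26.1 to 42.1 and 42.4 FPKM (log2 change 0.68, adjusted p = 6.1e-06), and RRM1 fell from 88.0 and 79.0 to 61.0 and 64.8 FPKM (log2 change -0.40, adjusted p = 0.00087). In 143B neither was called (log2 change 0.42, adjusted p = 0.33, for RRM2 and 0.23, adjusted p = 0.70, for RRM1). The RRM1 fall in HOS was lost when rescaled to a common sum (adjusted p = 0.060) and with a shared spread (0.44), as was the RRM2 rise with a shared spread (0.091). After length and GC correction RRM2 was called in 143B (0.53, adjusted p = 0.033), as it was with the replicate block (0.42, adjusted p = 0.034).

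BBC3 (PUMA), a BH3-only protein that triggers the mitochondrial death pathway, fell furthest among the members in 143B. It lies on chromosome 19 from 47220822 to 47232766 (minus strand). NC libraries had 7.67 and 5.42 FPKM and sgNAT10 libraries 1.67 and 0.93 FPKM. The mean went from 6.54 ± 1.59 to 1.3 ± 0.523 FPKM (SD, n = 2; log2 change -1.72, SE 0.34, adjusted p = 0.0058). The NC libraries of HOS had 2.8 and 3.62 FPKM, those of sgNAT10 4.41 and 4.15 FPKM, a rise of 0.33 (SE 0.12, adjusted p = 0.021). Groups overlapped in neither line. The difference between lines was -2.05 (SE 0.32, adjusted p = 0.0010), called under each of 18 alternatives. Its size depended on the processing: after length and GC correction it was -1.24, and the change in 143B was -1.05. The fall in 143B was lost without sgNAT10 replicate 2 (adjusted p = 0.12). Omitting NC replicate 1 (0.14) ended the HOS rise, which was also lost without sgNAT10 replicate 1 (0.14) or 2 (0.059) and under median-ratio scaling (0.27). After length and GC correction (0.057) and with a shared spread (0.31) it was lost as well. Ranked among the 11807 genes listed in both tables, BBC3 in HOS had percentiles of 20.3 and 24.9 for NC and of 23.4 and 22.6 for sgNAT10, which overlapped.

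BAX, the pore-forming effector that BBC3 acts upon, was the most abundant of the 10 genes. Its position is chromosome 19, 48954815 to 48961798 (plus strand). For 143B, NC gave 164 and 117 FPKM and sgNAT10 133 and 135 FPKM. The sgNAT10 libraries lay between the NC libraries, with a log2 change of -0.044 (95% interval -0.63 to 0.54, adjusted p = 0.91). In HOS it rose from 49.4 and 56.8 to 71.8 and 67.1 FPKM (log2 change 0.38, SE 0.09, adjusted p = 0.0018). Leaving out sgNAT10 replicate 1 ended the HOS call (adjusted p = 0.076), as did a spread shared by both lines (0.18) and median-ratio scaling (0.15). The difference between lines was not called (-0.43, 95% interval -1.05 to 0.20, adjusted p = 0.23). Without 143B NC replicate 2 that test gave -0.67 (adjusted p = 0.033), and rescaled to a common sum -0.97 (adjusted p = 0.0087).

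FAS, the death receptor that engages caspase-8 through FADD, was the member that fell in HOS. The gene spans 88990582 to 89015785 on chromosome 10 (plus strand) and shares 380 exonic bases with ACTA2 on the opposite strand. FAS stood at 2.36 and 1.89 FPKM in HOS NC and at 1.4 and 1.06 FPKM in HOS sgNAT10, without overlap (log2 change -0.49, SE 0.12, adjusted p = 0.0021). ACTA2 fell in the same libraries from 102 and 117 to 10.5 and 11.3 FPKM. Reads in the shared exons cannot be told apart without strand, so the FAS value is uncertain, and the part of ACTA2 in it was not tested. The FAS call was lost after length and GC correction (log2 change -0.21, adjusted p = 0.13; 0.095 with the replicate block added). In 143B FAS stood at 0.59 and 0.62 FPKM in NC and at 0.27 and 0.31 FPKM in sgNAT10. It was below the filter, and ACTA2 was also lower under sgNAT10 there, at 2.99 and 2.89 against 0.94 and 0.71 FPKM. Across groups FAS ran from HOS NC through HOS sgNAT10 and 143B NC to 143B sgNAT10, with no overlap between neighbours.

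ZMAT3 (WIG-1), an RNA-binding zinc finger protein, was the only one of the 7 members tested in both lines that was called higher in both. It lies on chromosome 3 from 179017223 to 179072279 (minus strand). 143B values were 0.96 and 1.39 FPKM for NC and 4.04 and 4.25 FPKM for sgNAT10. The groups were well apart, with a level 3.53 times as high (log2 change 1.25, SE 0.29, adjusted p = 0.010). In HOS it went from 1.83 and 1.62 to 2.55 and 2.68 FPKM (log2 change 0.41, SE 0.11, adjusted p = 0.0040). The rise was larger in 143B by 0.84 (SE 0.23 with a spread shared by both lines, adjusted p = 0.013). Among the genes listed in both tables ZMAT3 moved from percentiles 13.9 and 11.1 to 45.5 and 41.6 in 143B. In HOS its 4 libraries lay between percentiles 12.2 and 15.2. Leaving out sgNAT10 replicate 1 (adjusted p = 0.061) or 2 (0.10) ended the 143B call, at log2 changes of 1.28 and 1.22. The HOS call was lost under median-ratio scaling (0.062) and with a shared spread (0.10). The difference was lost without HOS NC replicate 1 (0.071), without HOS sgNAT10 replicate 1 (0.071) or 2 (0.055), and when rescaled to a common sum (0.14).

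TP53INP1, which promotes p53 phosphorylation and autophagy, was listed in HOS alone. Its position is chromosome 8, 94925972 to 94949411 (minus strand). In HOS it rose from 1.63 and 1.66 to 2.6 and 2.81 FPKM (log2 change 0.49, SE 0.11, adjusted p = 0.0010), a level 1.64 times as high with no overlap. It was called in HOS under each of 14 alternatives, at log2 changes from 0.21 to 0.68. In the 143B table TP53INP1 has no row, so the spread shared by both lines could not be tried for it. A filter at 5 FPKM removed it.

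TP53I3 (PIG3), a quinone oxidoreductase linked to reactive oxygen species, and PHLDA3, a pleckstrin-homology protein that restrains AKT, were called in neither line. TP53I3 lies on chromosome 2 from 24077433 to 24085861 (minus strand). The NC libraries of 143B had 11.7 and 7.48 FPKM, those of sgNAT10 13.4 and 10.4 FPKM (log2 change 0.30, 95% interval -0.48 to 1.08, adjusted p = 0.52). For HOS, NC gave 5.71 and 6.43 FPKM and sgNAT10 6.25 and 5.38 FPKM (log2 change -0.054, 95% interval -0.30 to 0.19, adjusted p = 0.69). TP53I3 groups overlapped in both lines. PHLDA3 lies on chromosome 1 from 201464383 to 201469237 (minus strand). It stood at 7.97 and 5.18 FPKM in 143B NC and at 7.98 and 10.6 FPKM in 143B sgNAT10 (log2 change 0.46, 95% interval -0.35 to 1.26, adjusted p = 0.34). HOS values were 7.03 and 9.32 FPKM for NC and 9.01 and 8.26 FPKM for sgNAT10 (log2 change 0.081, 95% interval -0.18 to 0.34, adjusted p = 0.57). Without HOS NC replicate 2 the HOS value was called (0.26, adjusted p = 0.030). After correction for transcript length and GC content both genes were called higher in 143B (log2 change 0.91, adjusted p = 0.0020, for TP53I3 and 1.2, adjusted p = 0.00043, for PHLDA3). Both were then called lower in HOS (-0.26, adjusted p = 0.019, and -0.22, adjusted p = 0.037). The difference between lines was 0.36 for TP53I3 (adjusted p = 0.43) and 0.38 for PHLDA3 (adjusted p = 0.42) without that correction, and 1.17 (adjusted p = 0.0016) and 1.42 (adjusted p = 0.0012) with it.

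**Figure D2:**
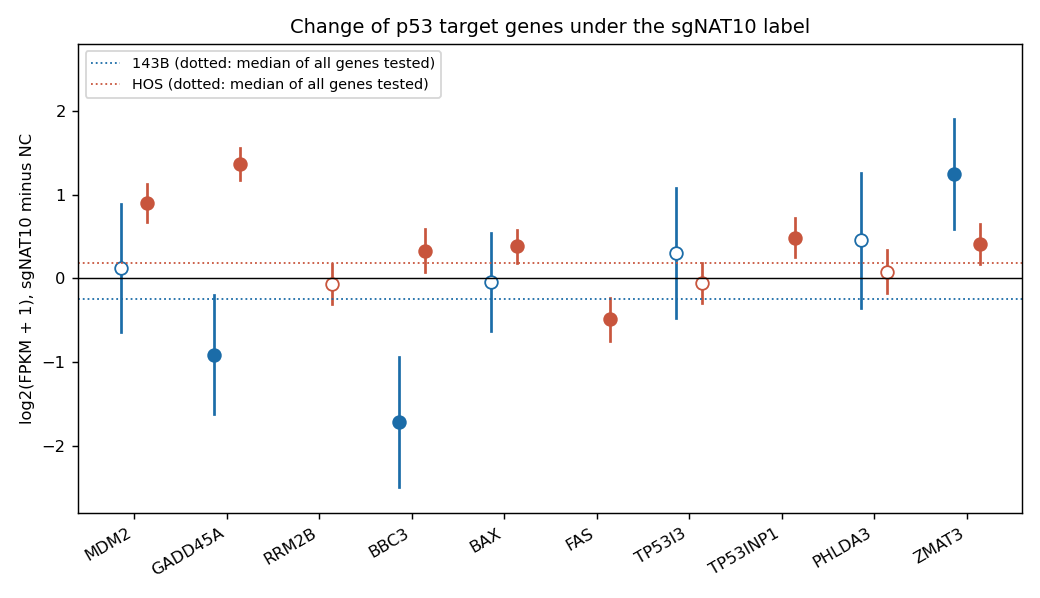
Change in log2(FPKM + 1), sgNAT10 minus NC, for the members tested, blue for 143B and red for HOS, with 95% intervals as vertical lines and filled points where the adjusted p was under 0.05. Dotted lines mark the median of all genes tested (-0.25 in 143B and 0.19 in HOS). GADD45A and BBC3 lie below 0 in 143B and above it in HOS.

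Across the 7 members tested for a difference between lines, 4 were called: MDM2, GADD45A and BBC3 lower and ZMAT3 higher in 143B than in HOS. Of all 10655 genes tested for this, 49.1% were called, 12.9% higher and 36.2% lower. The members' median difference was -0.43 and that of all genes -0.44. Without HOS NC replicate 1, or without either HOS sgNAT10 library, 2 members were called, which were GADD45A and BBC3. CDKN1A (p21), the p53 target with the widest swing of the named genes, fell in 143B from 111 and 104 to 6.61 and 6.67 FPKM and rose in HOS from 8.28 and 8.82 to 25.6 and 24 FPKM.

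Control levels of single members are given by line. The lines stand in separate tables that may have been normalized separately, so these levels are set side by side without a test. In FPKM, both 143B NC libraries exceeded both HOS NC libraries for GADD45A, BBC3, BAX and TP53I3. BAX had a mean of 140 FPKM in 143B and 53.1 in HOS (2.64 times) and BBC3 6.54 and 3.21 (2.04 times). GADD45A had 37.0 and 22.5 (1.64 times) and TP53I3 9.61 and 6.07 (1.58 times). Both 143B NC libraries were below both HOS NC libraries for MDM2, FAS, ZMAT3 and RRM2B. For RRM2B the means were 0.995 and 5.33 FPKM, 5.36 times higher in HOS, and for FAS 0.605 and 2.12 FPKM (3.51 times). PHLDA3 overlapped. So 4 of 9 members were higher and 4 lower, beside 37.4% and 50.9% of all 11807 genes listed in both tables. A percentile within each library removes the overall scale. By percentile FAS and RRM2B were still lower in 143B, and GADD45A, BBC3, BAX and TP53I3 still higher. MDM2 turned, with 41.1 and 31.6 in 143B and 31.2 and 29.7 in HOS, and ZMAT3 overlapped. By that measure 43.7% of all genes were higher and 46.4% lower in 143B.

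**Figure D3:**
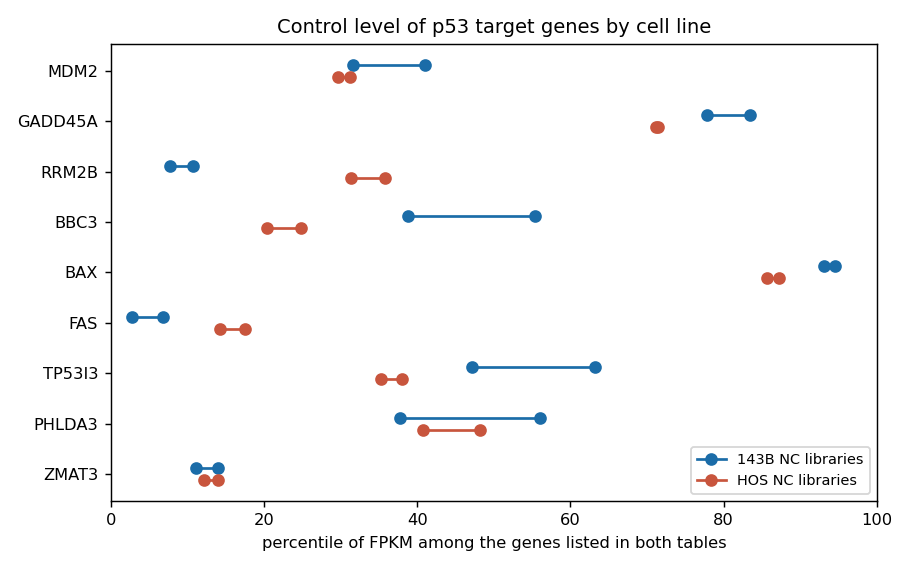
Percentile of each member's FPKM in the NC libraries (horizontal axis, 0 to 100, among the 11807 genes listed in both tables), with 1 point per library, blue for 143B and red for HOS, and a bar joining each pair. FAS and RRM2B stand lower in 143B, BAX, BBC3, GADD45A and TP53I3 higher, and PHLDA3 and ZMAT3 overlap.

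MDM4, the partner of MDM2 that masks the activation domain of p53, went from 1.97 and 2.05 to 12.2 and 16.7 FPKM in 143B (log2 change 2.34, SE 0.34, adjusted p = 0.0022). In HOS MDM4 went from 3.17 and 2.6 to 4.15 and 3.74 FPKM (log2 change 0.35, adjusted p = 0.014). The rise was larger in 143B by 1.99 (adjusted p = 0.00067), and that difference was called under each of 18 alternatives. Leaving out NC replicate 2 (adjusted p = 0.075) or sgNAT10 replicate 1 (0.14) ended the HOS call of MDM4, which was also lost under median-ratio scaling (0.21), after length and GC correction (0.42) and with a shared spread (0.24).

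Of 24 regulators of p53 on a list written for this description, 22 were tested in each line. In 143B 3 rose and 7 fell, with a median of -0.56 beside -0.25 for all genes, of which 12.9% were called higher and 25.4% lower. In HOS 11 rose and 9 fell, beside 45.5% and 23.0% of all genes, with a median of 0.27 (0.19 for all genes) that became -0.035 after length and GC correction. Without 143B sgNAT10 replicate 2 the 143B counts were 1 and 2, and without replicate 1 they were 1 and 4. KAT5 (Tip60), which acetylates p53, fell in 143B (log2 change -1.28) and in HOS (-0.46), and KAT8 fell in 143B (-1.54). EP300 and CREBBP, coactivators of p53, rose in HOS (1.13 and 1.02). HIPK2, a kinase of p53, rose in both lines, by 1.18 in 143B and 1.16 in HOS. The 143B rise of HIPK2 was not called once NC replicate 1 (adjusted p = 0.19), sgNAT10 replicate 1 (0.12) or sgNAT10 replicate 2 (0.27) was left out, with no filter (0.051) and when rescaled to a common sum (0.16). The KAT5 fall was lost in 143B without sgNAT10 replicate 2 (0.16), and in HOS without sgNAT10 replicate 1 (adjusted p = 0.0503) and with a shared spread (0.21).

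A list of 39 other p53 targets was set beside the background of all genes (12.9% higher and 25.4% lower in 143B, 45.5% and 23.0% in HOS). In 143B 3 of 33 tested rose and 8 fell, with a median of -0.36 beside -0.25 for all genes, and without sgNAT10 replicate 1 or 2 the counts were 2 and 3, and 1 and 3. In HOS 22 of 36 rose and 3 fell, with a median of 0.45 beside 0.19. Under median-ratio scaling 6 rose and 7 fell in 143B, and 18 rose and 7 fell in HOS. The TRAIL receptor TNFRSF10A went from 3.86 and 5.83 to 1.14 and 0.91 FPKM in 143B (log2 change -1.51) and from 2.48 and 2.62 to 5.25 and 4.74 FPKM in HOS (0.75). Its paralog TNFRSF10B changed by -0.996 in 143B and 1.15 in HOS, and the receptor tyrosine kinase EPHA2 by -1.27 and 1.17. GDF15, a stress cytokine that passed the filter in 143B only through its NC libraries, fell there (-2.49). Against that direction, EI24, a membrane protein of the endoplasmic reticulum, rose in 143B (1.73), as did the translesion polymerase gene POLH (1.43). APAF1, the scaffold of the apoptosome, rose in HOS (1.25), as did the transcriptional cofactor gene SERTAD1 (1.55). Leaving out 143B sgNAT10 replicate 1 or 2 ended the 143B calls of TNFRSF10A (adjusted p = 0.057 and 0.12), TNFRSF10B (0.27 and 0.12) and POLH (0.069 and 0.10). That of TNFRSF10B was lost without NC replicate 2 (0.16) and under median-ratio scaling (0.087) as well, and that of EPHA2 after length and GC correction (0.062).

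Around BBC3, BAX and FAS, 24 further genes of the BCL2 family and the caspase cascade were listed for comparison. In 143B 2 of 22 tested rose and 6 fell (median -0.37), and in HOS 9 of 21 rose and 3 fell (median 0.15). All genes had 12.9% higher and 25.4% lower with a median of -0.25 in 143B, and 45.5% and 23.0% with a median of 0.19 in HOS, so these shares are not far from the background. Under median-ratio scaling these were 4 and 4, and 6 and 7. XIAP, an inhibitor of caspases, rose in both lines, from 2.26 and 3.03 to 17.5 and 20.9 FPKM in 143B (log2 change 2.47, adjusted p = 0.0017) and by 0.75 in HOS. BMF, a BH3-only protein like BBC3, took opposite directions. It fell in 143B from 5.82 and 5.49 to 0.83 and 0.96 FPKM (log2 change -1.81) and rose in HOS from 3.72 and 4.3 to 10.7 and 10.2 FPKM (1.19). In 143B BMF passed the filter only through its NC libraries, so no p-value is given for that fall. BCL2L1, which encodes the survival protein BCL-XL, changed by -0.90 in 143B and 0.48 in HOS. CASP9, the initiator caspase of the mitochondrial pathway, fell in 143B (-1.65), and BCL2L11 (BIM) rose in HOS (0.99). CYCS, cytochrome c, fell in HOS (-0.65). Without sgNAT10 replicate 1 the 143B list counts were 1 and 1, without replicate 2 they were 1 and 2, and neither CASP9 (adjusted p = 0.096 and 0.064) nor BCL2L1 (0.060 and 0.11) was then called. BCL2L1 was also lost without 143B NC replicate 1 (0.059), under median-ratio scaling (0.25) and after length and GC correction (0.33). With a shared spread the HOS calls of BCL2L1 (0.080) and CYCS (0.077) were lost.

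**Figure D4:**
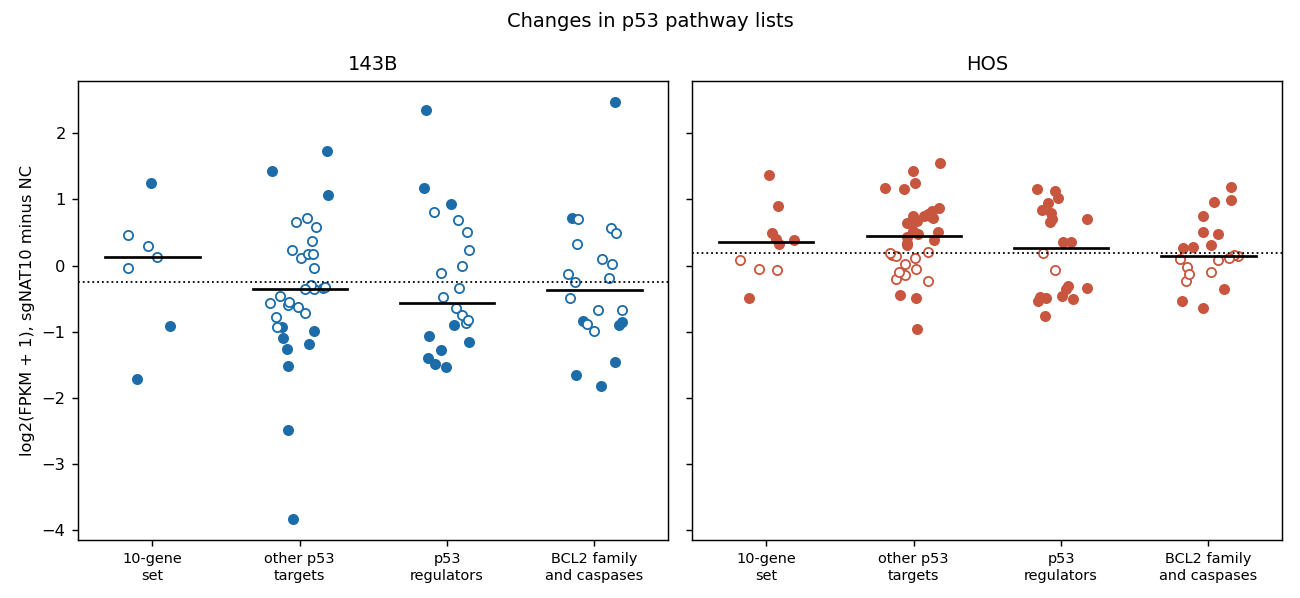
Change in log2(FPKM + 1), sgNAT10 minus NC, of each gene tested in the 10-gene set and in the lists of other p53 targets, p53 regulators, and BCL2 family and caspases, by line. Filled points had an adjusted p under 0.05, bars are list medians and the dotted line is the median of all genes tested. The other p53 targets had a median of -0.36 in 143B and 0.45 in HOS.

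For each of the 7 members tested in both lines, the genes with the most similar pattern were sought among 10654 others. The measure was Pearson's r over the 8 libraries of log2(FPKM + 1) minus the mean of the NC libraries of that line. These points share libraries and a common scaling, so r is a description. For BBC3 the closest were SLC22A17 and DHRS13 (r = 0.999 for each), for GADD45A TBC1D9 (0.999) and DNMT3B (0.998), and for ZMAT3 SLC35E3 and LRRC58 (0.999 for each). For BAX they were TUFM (0.996) and GLYCTK (0.993), and for MDM2 ZNF263 (0.989) and GLUL (0.988). TP53I3 was closest to HSPBP1 (0.977) and COX8A (0.970), and PHLDA3 to EXOSC5 (0.971) and SAC3D1 (0.969). No member was among the closest genes of another. Only the 2 closest were kept for each, so this does not show whether members moved together.

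**Figure D5:**
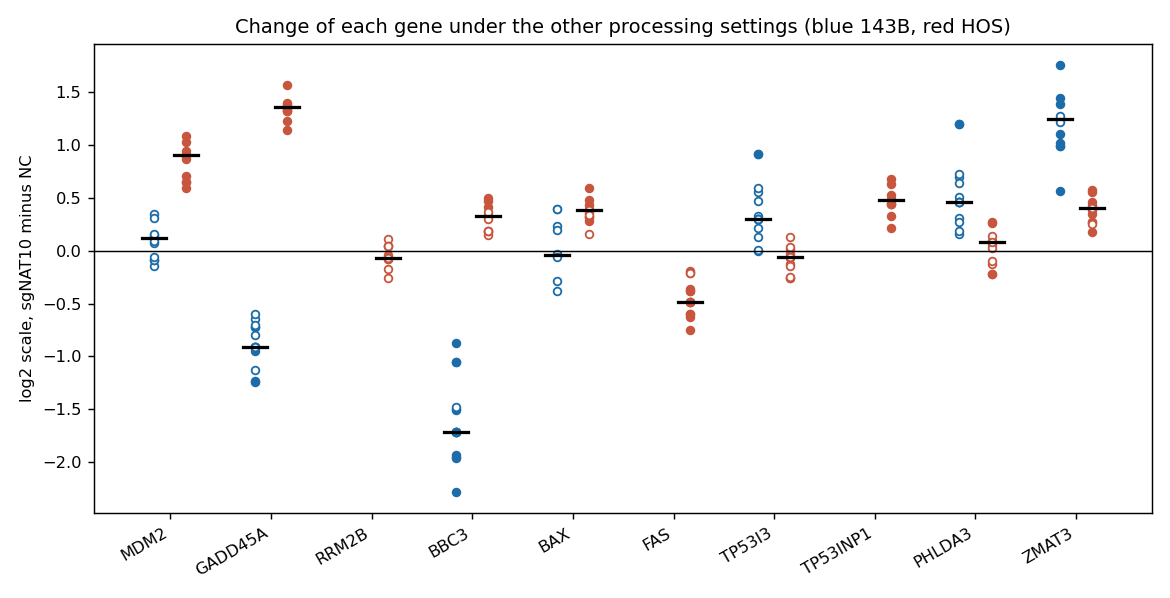
Log2 change of each member, sgNAT10 minus NC, under every alternative setting and with each library left out (1 point per setting, filled where the adjusted p was under 0.05), with the value reported above as a bar, blue for 143B and red for HOS. MDM2, GADD45A and TP53INP1 in HOS were called in every setting plotted, and BAX in 143B lay on both sides of 0. TP53INP1 has no point for the shared spread or the filter at 5 FPKM.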

How the data were processed

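The authors deposited FPKM values per gene in a separate table for each line, per the file headers. Bowtie2, RSEM, DESeq2 and GRCh38 are named in the submitters' processing notes, without versions or roles. No source used here gives the annotation. The tables list 12700 genes for 143B and 12810 for HOS. From them log2(FPKM + 1) was computed. Genes reaching 1 FPKM in 2 or more of a line's 4 libraries entered limma 3.58.1 in R 4.3.3 (intensity trend, two-sided, Benjamini-Hochberg over all genes, threshold 0.05), sgNAT10 minus NC in each line. A fit of all 8 libraries, over genes passing in both tables, tested the difference with a spread shared by both lines. No count model or counting interval applies to FPKM. Lengths, GC contents and positions came from GENCODE 29 (GRCh38), matched for 97.9% of 143B and 98.0% of HOS genes. Named genes are the 10 members, NAT10, MDM4, CDKN1A, the paralogs and partners, and, from each of 3 lists, genes among the 5 largest called changes of a line. ACTA2 and CPM were added after the data were seen, because they share exons with members. Not every gene that this rule covers is reported here. The members and lists were chosen with earlier results of these data known. Alternatives were other pseudocounts (0.1 and 5), filters (none and 5 FPKM) and scalings, a length and GC correction (splines with 4 degrees of freedom), no trend, a replicate block, a shared spread and leaving out each library. The fits were tested on simulated data.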

Additional observations from a re-analysis of the deposited data

Results flagged for a closer look

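The change under the sgNAT10 label differed between the lines for 4 members, by the limma test of the difference (143B minus HOS): -2.28 for GADD45A, -2.05 for BBC3, -0.78 for MDM2 and 0.84 for ZMAT3 on the log2 scale. GADD45A and BBC3 were lower in both sgNAT10 libraries of 143B and higher in both of HOS, MDM2 was called in HOS alone, and ZMAT3 was higher in all 4 sgNAT10 libraries. Of all genes tested, 49.1% differed by this test. Under median-ratio scaling the GADD45A fall in 143B (adjusted p = 0.17), the BBC3 rise in HOS (0.27) and the MDM2 difference (0.25) were not called. The ZMAT3 difference was not called when rescaled to a common sum (0.14).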

How the results depend on the processing

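Genes called in 143B numbered 7652 with the replicate block and 7061 with the block plus length and GC correction, and 1995 to 5067 with a library left out, against 4370. In HOS they numbered 1864 with a spread shared by both lines and 6099 to 8872 with a library left out, against 8195. For the difference they were 3652 to 6381, against 5235. Median-ratio scaling split that count into 2662 higher and 2711 lower, against 1375 and 3860. Members called in 143B were 5 after length and GC correction, with or without the replicate block, and 0 to 3 with a library left out. In HOS they were 3 with a filter at 5 FPKM, 4 under median-ratio scaling, 2 with a shared spread and 5 to 8 with a library left out. For the difference they were 1 with a filter at 5 FPKM and 2 to 5 with a library left out. Members lower in 143B NC than in HOS NC were 2 with a common sum within each table, and 5 with 1 sum across both tables, an alternative added after seeing the data. The sum differs between tables in the first of these.

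Same-numbered libraries deviated together in 143B (r = 0.605) but not in HOS (r = -0.106), over 2 pairs, too few to establish that the numbers pair them. The replicate block alone left 3, 7 and 4 members called in 143B, in HOS and for the difference, and it called GADD45B (-0.51, adjusted p = 0.0083) and RRM2 (0.42, adjusted p = 0.034) in 143B. Crossing the numbers in HOS, an alternative chosen after seeing the data, gave 8458 genes and 7 members called there.

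These changes turned direction, and the cause was not tested. Rescaled to a common sum within each table, MDM2 in 143B was -0.14, TP53I3 -0.0033 in 143B, 0.13 in HOS and -0.13 for the difference, the PHLDA3 difference -0.11, RRM2B in HOS 0.11 and RRM1 in 143B -0.099. Under median-ratio scaling BAX was 0.24 in 143B and 0.080 for the difference, and PHLDA3 in HOS -0.12. With length and GC correction, with or without the replicate block, MDM2 in 143B was -0.090, BAX 0.40 in 143B and 0.073 for the difference, PHLDA3 in HOS -0.22, RRM2B in HOS 0.045, NAT10 in HOS -0.047, GADD45B in 143B 0.13 and TP73 in HOS -0.21. With a library left out, MDM2 in 143B ran from -0.063 to 0.31, BAX in 143B from -0.29 to 0.20, TP53I3 in HOS from -0.15 to 0.038, PHLDA3 in HOS from -0.10 to 0.26, RRM2B in HOS from -0.17 to 0.044 and RRM1 in 143B from -0.28 to 0.74.

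Depth is unknown, NAT10 RNA was not called lower in HOS, and 2 libraries a group leave intervals wide in 143B. A fit without a library assumes that the lone one varies like the others.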
